A study of Homo sapiens with 24 samples.

Results

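The centrosome and the centromere each lend a name to a large set of human genes, CEP and CENP, and the expression of 56 of them was followed here in 2 osteosarcoma cell lines exposed to THZ531. They are all genes with a single-symbol probe set whose symbol is CEP followed by a digit (36 genes) or CENP followed by 1 letter (20 genes), of 18132 genes measured, a rule by name that uses no measured value, although the 2 families were picked with earlier results of these data known. The lines were U2-OS and SJSA-1, established human osteosarcoma lines, and each was kept for 6 h in DMSO, the solvent control, or in 50, 200 or 800 nM THZ531, a small molecule inhibitor of the transcription kinases CDK12 and CDK13. Each of the 8 groups had 3 Affymetrix PrimeView arrays, 24 arrays in all. No label tells if the 3 arrays of a group stand for separate cultures. The p-values therefore rest on the spread between arrays of a group, pooled over the groups fitted, and this spread may be technical. Each line is 1 model of the tumour and not a sample of patients.

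The centrosome organises microtubules around a pair of centrioles, which are copied once per cell cycle by a cartwheel assembled under the kinase PLK4 and which anchor the primary cilium. The centromere is marked by nucleosomes that hold CENPA in place of the usual histone H3, and the constitutive centromere-associated network (CCAN) built on them carries the kinetochore that binds spindle microtubules. Many genes of both structures are expressed mainly in late cell cycle, and CDK12 is known for its part in the transcription of long genes, DNA repair genes among them.

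MDM2, which is amplified in SJSA-1, was 11.1-fold higher in the SJSA-1 than in the U2-OS DMSO arrays (mean log2 intensity 10.66 ± 0.10 against 7.18 ± 0.031, SD, n = 3, adjusted p = 1.43e-19). Of 10 osteoblast markers on the array, 5 were active in U2-OS (RUNX2, SPP1, COL1A1, SPARC and BMP4) and SPARC was the 1 active in SJSA-1, where active means a mean intensity above 100 on the DMSO arrays of the line. Leukocyte and endothelial markers were active in neither line (0 of 14), and NEFL was the 1 neuronal or glial marker of 14 active in U2-OS, with 0 in SJSA-1. Array medians lay between 30.1 and 33.6. Poly-A control RNAs are meant to be added to each sample in a fixed amount, which the study's methods do not state. Their log2 levels on treated arrays exceeded those in DMSO, in U2-OS by 0.10, 0.53 and 0.91 as the dose rose and in SJSA-1 by 0.50, 0.46 and 0.53. The changes below are relative to the bulk of genes on normalised arrays, and a shift of the arrays by both kinds of added control (poly-A and hybridization) moved the median of all tested genes to between -0.28 and -0.54 in all comparisons with DMSO other than U2-OS at 50 nM (0.013). The part of this shift in the results was not tested, and in such bulk samples fewer expressing cells and less RNA per cell cannot be told apart.

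Among the CEP and CENP genes, U2-OS had 31 active genes (16 CEP, 15 CENP) and SJSA-1 had 33 (19 CEP, 14 CENP), with 28 active in both lines and 20 in neither. CENPH, CENPO and CEP70 passed in U2-OS only, and CENPV, CEP15, CEP290, CEP41 and CEP72 in SJSA-1 only. CEP78 lay just inside the threshold in U2-OS, with 107, 102 and 100 on the DMSO arrays, and CENPC just outside, with 97.0, 90.5 and 92.4. Genes below the threshold were not tested for the drug.

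Before treatment the centromere genes were mostly dimmer in SJSA-1 than in U2-OS, whereas the centrosomal genes split evenly. In the comparison of DMSO arrays over all 18132 genes, without a filter on level, SJSA-1 was higher in 26.1% of genes and lower in 30.1%. Of the 20 CENP genes, 4 were higher and 13 lower, with a median log2 difference of -0.42, and of the 36 CEP genes 13 were higher and 13 lower, with a median of 0.01, against -0.02 over all genes. Of 16 proliferation markers 4 were higher and 10 lower, with a median of -0.41, close to that of the CENP genes, and their part in this difference was not tested. CEP15 stood apart, with intensities of 128, 153 and 149 in SJSA-1 and 6.68, 6.45 and 7.36 in U2-OS. The U2-OS arrays lie far below the array medians, so no fold is given. CENPV, a protein of the central spindle, read 385, 407 and 419 in SJSA-1 and 46.9, 54.9 and 53.8 in U2-OS (7.67-fold, adjusted p = 2.71e-20). The arrays of the lines did not overlap for either gene. CEP19, a ciliary base protein, read at most 34.5 on the DMSO arrays, and CEP290, a component of the ciliary transition zone, was 2.31-fold higher in SJSA-1. CEP43, a centriolar satellite and centriole protein once named FOP, went the other way, with 209, 217 and 220 in SJSA-1 against 516, 501 and 446 in U2-OS (2.25-fold lower, adjusted p = 1.46e-13).

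**Figure D1:**
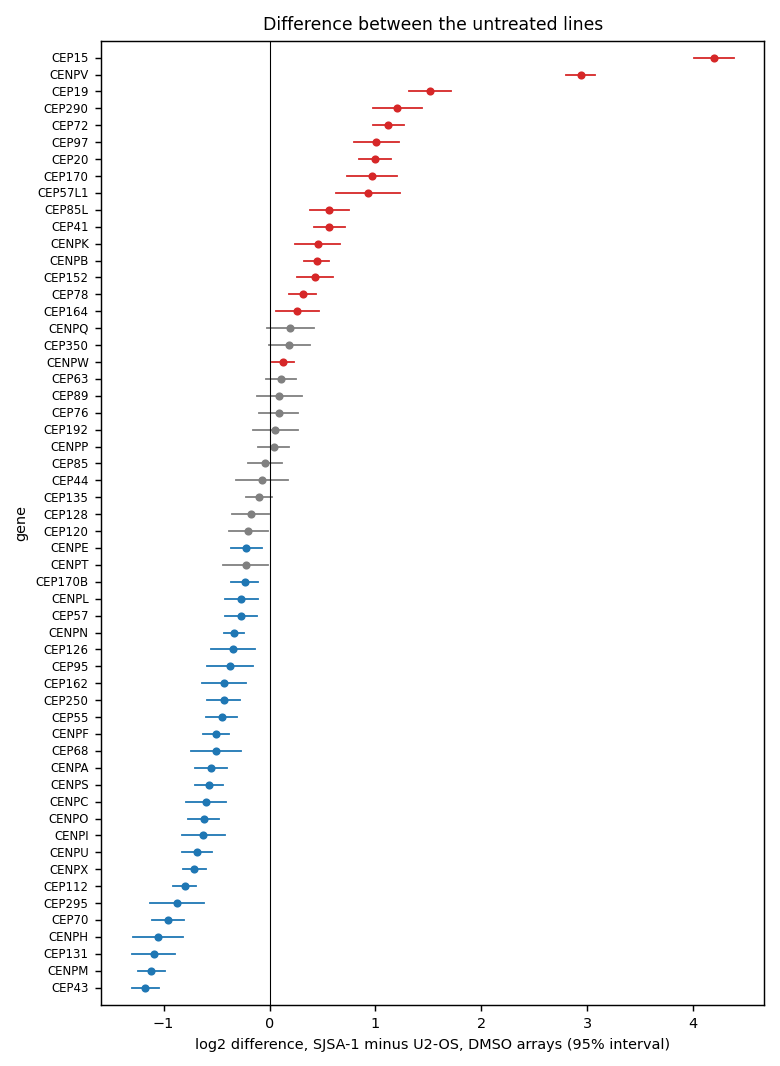
Log2 difference of the 56 genes between the DMSO arrays of SJSA-1 and U2-OS, with bars for the 95% interval (3 arrays per line); red genes were higher and blue genes lower in SJSA-1 at an adjusted p under 0.05, grey genes did not pass. CEP15, near the floor in U2-OS, and CENPV at 2.94 stand far to the right, and CEP43 at -1.17 lies at the other end.

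The drug changed few of these genes at 50 nM in U2-OS and nearly all active ones at the same dose in SJSA-1, where most fell. In U2-OS at 50 nM, 0 of the 31 active members were higher and 1 was lower by limma, where 3.4% of the 6741 active genes were higher and 3.23% lower, and at an unadjusted p under 0.05 2 members were higher and 6 lower. The 1 call was CENPE, a kinesin motor of the kinetochore, named here after its value was seen (-0.25 ± 0.06, SE, adjusted p = 0.0317). The count was 3 without the 50 nM array of replicate 1 and 0 without any one of the other 50 nM arrays or of the DMSO arrays of replicates 1 and 2. At 200 nM in U2-OS 7 members rose and 11 fell (18.2% and 25% of all active genes), and at 800 nM 8 were higher and 12 lower (25.3% and 36.5%). In all, 18 of 31 members passed at 200 nM, against 43.3% of active genes, and 20 at 800 nM, against 61.8%. Median log2 changes of the members were -0.05, -0.05 and -0.12 at the rising doses, against -0.01, -0.02 and -0.05 over all active genes, and at least 2-fold changes were found at 800 nM only, with 1 higher and 2 lower (1.16% and 4.38% of all active genes). At 50 and 200 nM, 0.0297% and 0.0445% of all active genes were higher by that much and 0% and 0.697% lower.

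In SJSA-1, 7 members were higher and 24 lower of 33 at 50 nM, where 26.6% of the 6568 active genes were higher and 40.6% lower. At 200 nM 9 were higher and 20 lower (33.9% and 41% of all active genes), and at 800 nM 10 were higher and 15 lower (36.5% and 37.5%). Altogether 31, 29 and 25 of the 33 members passed at the rising doses, against 67.2%, 74.9% and 74% of active genes. The median log2 change was -0.41 at 50 nM, -0.42 at 200 nM and -0.11 at 800 nM, against -0.05, -0.02 and 0.02 over all active genes. The falls lay mainly with the centrosomal genes, of which 17, 14 and 10 of 19 fell at the rising doses while 2, 3 and 4 rose. The CENP genes were split, with 7, 6 and 5 of 14 lower and 5, 6 and 6 higher. At least 2-fold falls were seen in 5 members at 50 nM (6.21% of all active genes), 7 at 200 nM (11.7%) and 4 at 800 nM (12.2%), and the 1 rise of that size was at 50 nM (0.959%, against 0.396% and 0.152% of all active genes at 200 and 800 nM). When arrays were shifted by the poly-A and hybridization controls, the members that passed were 1 higher and 17 lower at 200 nM and 3 and 25 at 800 nM in U2-OS, and 1 and 26, 0 and 23, and 1 and 24 at the rising doses in SJSA-1. Under this shift 95.6% to 97.2% of the calls over all active genes were lower in these 5 comparisons, so members and other genes alike passed mostly as lower. With the poly-A controls alone they were 0 and 26, and 1 and 27 in U2-OS and 1 and 27, 0 and 26, and 0 and 26 in SJSA-1, where 97.7% to 99.9% of all calls were lower. With arrays centred on their median 13 were higher and 18 lower in SJSA-1 at 200 nM, against 46.7% of all calls lower.

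**Figure D2:**
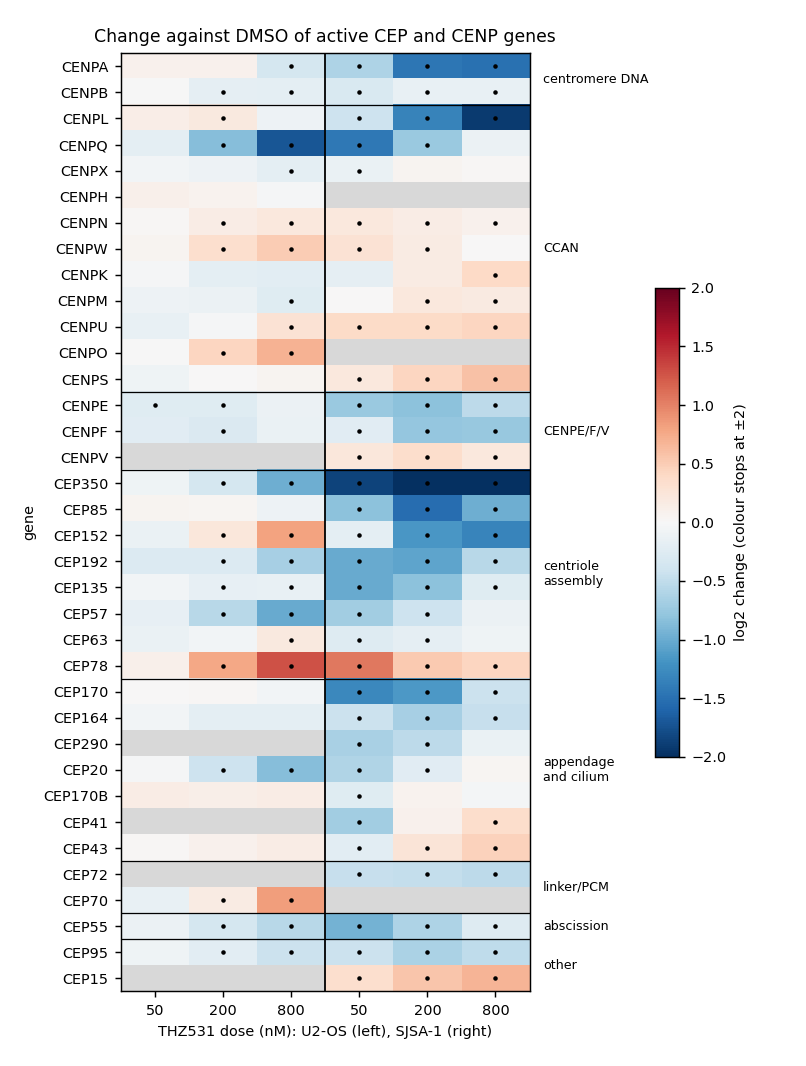
Log2 change against DMSO of the 36 genes active in at least 1 line (rows, grouped by role) at each dose in U2-OS (left) and SJSA-1 (right); blue is lower and red higher, colours stop at 2, grey is not active, and a dot marks an adjusted p under 0.05. The deepest row is CEP350, at -3.24 and -3.55 in SJSA-1 at 200 and 800 nM, and CEP78 is red in both lines, although its value at 800 nM in SJSA-1 was -0.11 with arrays shifted by the poly-A controls.

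Promoters of the members were looked at for the letters of 2 elements of cell cycle promoters, the CCAAT box and the cell cycle homology region (TTTGAA or TTCGAA), each on both strands, in the 250 bases before and 50 after the start in RefSeq (GRCh38.p14). Promoters were found for 49 of the 56 members. CCAAT was in 26 of them (53.1%), against 35.7% of 27305 promoters of the same length, the homology letters were in 18 (36.7% against 16.6%), and both were in 11 (22.4% against 6.6%). The shares of single elements were alike in the families, at 53.1% of CEP and 52.9% of CENP promoters for CCAAT and 37.5% and 35.3% for the homology letters. Both elements were in 6 of 32 CEP (18.8%) and 5 of 17 CENP promoters (29.4%). A match is a description and not a site. Shown here are the genes with the deepest fall (CEP350), the histone of the centromere (CENPA), the abscission gene CEP55 and CEP57, which fell in both lines, with matches to either element in capitals (CCAAT reads ATTGG and TTTGAA reads TTCAAA on the opposite strand).
CENPA (chr2:26785806-26786105, plus strand): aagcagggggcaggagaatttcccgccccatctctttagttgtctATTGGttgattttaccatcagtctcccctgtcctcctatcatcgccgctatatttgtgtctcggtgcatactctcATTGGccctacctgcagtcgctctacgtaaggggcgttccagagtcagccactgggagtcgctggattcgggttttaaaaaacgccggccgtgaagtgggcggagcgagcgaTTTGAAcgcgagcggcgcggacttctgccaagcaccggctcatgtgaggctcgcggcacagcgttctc
CEP55 (chr10:93496362-93496661, plus strand): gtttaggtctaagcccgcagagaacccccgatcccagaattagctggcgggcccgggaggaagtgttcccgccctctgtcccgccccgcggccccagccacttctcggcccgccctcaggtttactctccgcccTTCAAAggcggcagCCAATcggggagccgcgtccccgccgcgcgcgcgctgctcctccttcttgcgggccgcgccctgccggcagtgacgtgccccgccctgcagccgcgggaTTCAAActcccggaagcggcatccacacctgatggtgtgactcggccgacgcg
CEP57 (chr11:95789764-95790063, plus strand): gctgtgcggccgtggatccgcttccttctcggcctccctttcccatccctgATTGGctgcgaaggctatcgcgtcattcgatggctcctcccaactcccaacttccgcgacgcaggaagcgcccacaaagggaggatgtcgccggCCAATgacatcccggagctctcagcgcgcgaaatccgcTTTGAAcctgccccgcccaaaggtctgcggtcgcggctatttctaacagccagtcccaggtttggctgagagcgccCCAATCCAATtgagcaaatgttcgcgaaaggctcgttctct
CEP350 (chr1:179954560-179954859, plus strand): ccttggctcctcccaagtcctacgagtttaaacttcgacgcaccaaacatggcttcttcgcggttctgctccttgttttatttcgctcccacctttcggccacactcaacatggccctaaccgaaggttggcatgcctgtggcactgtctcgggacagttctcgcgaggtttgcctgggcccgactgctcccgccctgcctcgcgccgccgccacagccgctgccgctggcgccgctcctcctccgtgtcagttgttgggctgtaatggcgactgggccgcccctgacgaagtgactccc
CENPA has 2 CCAAT matches and 1 homology match 18 bases before the start, CEP55 has 1 and 2, CEP57 has 4 and 1, and CEP350 has neither.

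Genes are taken below by role. Those with full array values follow a rule of naming, and CENPB, CENPE, CENPK, CENPX, CEP63, CEP95, CEP135, CEP164, CEP170B, CEP192 and the genes below the threshold were given values after these were seen, to complete their groups. The genes of centriole assembly included CEP350, which had the largest change of any active member. Of 8 active in each line, 7 fell in SJSA-1 at 50 and at 200 nM and 5 at 800 nM, with medians of -0.76, -0.94 and -0.40, and 1 rose at each dose, against 40.6%, 41% and 37.5% of all active genes lower. In U2-OS 2 rose and 4 fell at 200 nM and 3 and 4 at 800 nM, against 18.2% higher and 25% lower and 25.3% and 36.5% of all active genes. CEP350 (chr1:179954810-180114875, GRCh38.p14), a large protein that anchors microtubules and stabilises centrioles, read 202, 199 and 202 on the SJSA-1 DMSO arrays. It fell to 54.9, 56.1 and 53.4 at 50 nM, to 24.3, 17.4 and 20.0 at 200 nM and to 14.6, 16.1 and 18.1 at 800 nM, below the array medians from 200 nM on and with no overlap between neighbouring groups other than the 2 highest doses. These are falls of 3.62-fold, 9.47-fold and 11.7-fold on the log2(value + 1) scale (-1.86, -3.24 and -3.55, each ± 0.10, SE, adjusted p = 2.58e-09, 9.8e-12 and 2.53e-12). In U2-OS CEP350 stood at 189, 168 and 175 in DMSO and still at 182, 170 and 150 at 50 nM. It fell to 148, 131 and 136 at 200 nM (-0.35, adjusted p = 0.00227) and to 91.1, 84.4 and 91.8 at 800 nM (1.98-fold, -0.98). The 2 other active probe sets of the gene gave the same directions, at -2.91 and -2.70 in SJSA-1 at 200 nM and, for the brighter, at -1.02 in U2-OS at 800 nM.

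CEP152, the scaffold that brings PLK4 to the mother centriole, was the 1 tested member called in opposite directions in the lines at both upper doses. In U2-OS it read 124, 127 and 117 in DMSO, 142, 145 and 143 at 200 nM and 224, 202 and 218 at 800 nM (1.74-fold, 0.80 ± 0.07, adjusted p = 1.12e-06). In SJSA-1 it read 158, 167 and 172 in DMSO, 83.3, 71.0 and 65.8 at 200 nM and 64.0, 62.7 and 69.6 at 800 nM (2.51-fold lower, -1.33 ± 0.08, adjusted p = 3.98e-09). Treated and DMSO arrays did not overlap in any of these 4 comparisons, but the rise at 200 nM in U2-OS was small (0.22, adjusted p = 0.0289), and lost its call without any one of the 3 arrays at 200 nM or of the DMSO arrays of replicates 1 and 3 (0.19 to 0.23; lowest adjusted p = 0.0534). With arrays shifted by the poly-A and hybridization controls the U2-OS value at 200 nM was -0.04, and with the poly-A controls alone that at 800 nM was -0.11. At 50 nM CEP152 passed in SJSA-1 (-0.20, adjusted p = 0.0366), and did not without the DMSO or the 50 nM array of replicate 2 or of replicate 3 (-0.16 to -0.19).

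CEP85, which binds STIL and helps to activate PLK4, fell at each dose in SJSA-1 and passed at none in U2-OS, and the difference between the lines passed at each. The SJSA-1 arrays read 159, 155 and 155 in DMSO, 87.4, 97.7 and 80.4 at 50 nM, 58.9, 55.7 and 46.9 at 200 nM and 76.1, 82.7 and 78.8 at 800 nM. The lowest arrays were thus those at 200 nM (2.89-fold lower, -1.53 ± 0.08, adjusted p = 1.63e-09). In U2-OS its 12 arrays ranged from 148 to 182 and no dose passed. CEP192, which recruits PLK4 together with CEP152, fell 2.01-fold, 2.09-fold and 1.47-fold in SJSA-1 and, at 200 and 800 nM, 1.21-fold and 1.59-fold in U2-OS. CEP135, a cartwheel protein, fell by 1.01, 0.82 and 0.25 in SJSA-1 and, at the upper doses, by 0.17 and 0.16 in U2-OS, where the arrays overlapped those in DMSO. These U2-OS calls of CEP135 lay at the threshold. With each probe set tested on its own by limma they did not pass (adjusted p = 0.0525 and 0.0515). CEP63, the partner of CEP152, had small values, with -0.26 and -0.18 at 50 and 200 nM in SJSA-1 and 0.19 at 800 nM in U2-OS past the threshold. The rise of CEP63 was not followed under the shifts by controls.

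CEP57, a protein of the pericentriolar material close to the centriole wall, ran with dose in U2-OS and against it in SJSA-1. It read 274, 260 and 271 in U2-OS in DMSO, 176, 172 and 198 at 200 nM and 139, 124 and 133 at 800 nM (2.02-fold lower, -1.01 ± 0.07, adjusted p = 6.13e-08). In SJSA-1 it read 201, 234 and 232 in DMSO, 138, 140 and 131 at 50 nM and 198, 218 and 199 at 800 nM, so that the 50 nM arrays were the lowest (-0.70) and those at 800 nM overlapped DMSO (-0.11, adjusted p = 0.147). The other 3 active probe sets of CEP57 lay between -0.72 and -0.95 at 800 nM in U2-OS and between -0.57 and -0.74 at 50 nM in SJSA-1. Without DMSO replicate 1 the change at 800 nM in SJSA-1 passed as lower (-0.18, adjusted p = 0.0222).

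CEP78, a centriolar protein whose loss causes cone-rod dystrophy with hearing loss, had the largest rise of any active member in each line. In U2-OS it read 107, 102 and 100 in DMSO, 179, 162 and 189 at 200 nM and 261, 252 and 241 at 800 nM (1.70-fold and 2.43-fold, 0.77 and 1.28, each ± 0.06, adjusted p = 2.5e-06 and 5.13e-09). In SJSA-1 it read 122, 136 and 127 in DMSO, 267, 276 and 258 at 50 nM, 190, 193 and 172 at 200 nM and 172, 169 and 176 at 800 nM. The SJSA-1 rise was thus largest at the lowest dose (2.07-fold, 1.05), and all treated arrays lay above DMSO in both lines at these doses. With arrays shifted by both kinds of control, the values at 200 and 800 nM in SJSA-1 were 0.18 and 0.03 and did not pass, and with the poly-A controls alone CEP78 stood at 0.23 at 200 nM in U2-OS, which did not pass, and at -0.11 at 800 nM in SJSA-1.

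**Figure D3:**
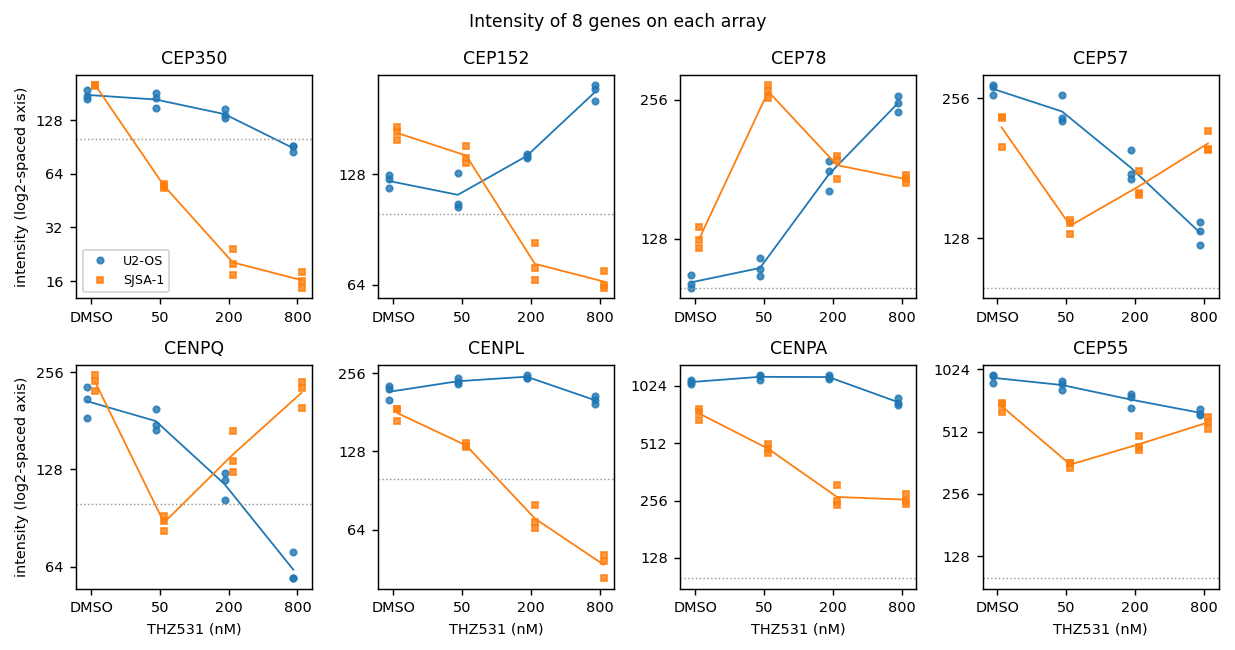
Intensity of 8 genes on each of the 24 arrays (log2-spaced axis) against THZ531 dose, with U2-OS in blue circles and SJSA-1 in orange squares; lines join the geometric means of 3 arrays and the dotted line marks 100, above which a DMSO mean counts as active. CEP350 sinks to 14.6 to 18.1 in SJSA-1, CEP152 moves apart in the lines, and CENPQ and CEP57 are lowest at 50 nM in SJSA-1 and at 800 nM in U2-OS.

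The appendage and cilium genes fell together at the lowest dose in SJSA-1, with 7 of 7 active genes lower at 50 nM (median -0.60), and separated after that into 4 lower and 1 higher at 200 nM and 2 lower and 2 higher at 800 nM. Over all active genes 40.6% were lower at 50 nM, 41% lower and 33.9% higher at 200 nM and 37.5% and 36.5% at 800 nM, and the counts at the upper doses lie near these shares. In U2-OS 1 of 5, CEP20, fell at 200 and at 800 nM. CEP170, a subdistal appendage protein, read 326, 347 and 326 in SJSA-1 in DMSO, 139, 131 and 136 at 50 nM, 172, 144 and 135 at 200 nM and 237, 256 and 251 at 800 nM (-1.29, -1.15 and -0.43, each ± 0.07, adjusted p = 5.96e-09, 1.06e-08 and 0.000172). In U2-OS its arrays ranged from 139 to 197 in all groups, with no dose called. A dimmer active probe set of CEP170 in SJSA-1 was higher at 50 nM (0.48, adjusted p = 8.22e-06) and lower at 200 nM (-0.42), so the active probe sets disagree at 50 nM. Of the 2 dimmer sets below the threshold, 1 read lower (-1.16) and 1 higher (0.69) there, without a test. CEP164, which builds the distal appendages, fell at each dose in SJSA-1 (-0.43, -0.66 and -0.46), and CEP290 at 50 and 200 nM (-0.65 and -0.52) but not at 800 nM (-0.14, adjusted p = 0.34).

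CEP20, a small protein of the ciliary base and centriolar satellites, had the same course as CEP57. In U2-OS it read 298, 298 and 296 in DMSO, 231, 199 and 242 at 200 nM and 159, 155 and 181 at 800 nM (-0.85 ± 0.07, adjusted p = 7.1e-07). In SJSA-1 it read 580, 600 and 605 in DMSO, 375, 380 and 422 at 50 nM, 537, 501 and 488 at 200 nM and 572, 630 and 626 at 800 nM. The arrays at 800 nM overlapped those in DMSO (0.03, adjusted p = 0.612), and this value was -0.36 with the poly-A and hybridization controls. CEP41, a ciliary protein needed for tubulin glutamylation, crossed over in SJSA-1, with 108, 116 and 103 in DMSO, 68.6, 70.0 and 63.6 at 50 nM and 141, 136 and 140 at 800 nM (-0.69 and 0.35, adjusted p = 5.5e-08 and 3.38e-05), although the value at 800 nM was -0.04 under the shift by both kinds of control. CEP43 crossed in the same way (-0.22, 0.26 and 0.47 at the rising doses in SJSA-1, the value at 200 nM being -0.08 and that at 800 nM 0.08 after that shift, and the latter -0.06 with the poly-A controls alone). CEP170B, the paralogue of CEP170, passed at 50 nM in SJSA-1 only (-0.25).

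CEP55, which recruits the abscission machinery to the midbody at the end of cell division, fell in both lines. In U2-OS it read 962, 955 and 879 in DMSO, 755, 666 and 776 at 200 nM and 622, 617 and 657 at 800 nM (-0.35 and -0.56, each ± 0.06, adjusted p = 0.0009 and 8.2e-06). In SJSA-1 it read 639, 704 and 699 in DMSO, 362, 362 and 340 at 50 nM, 488, 431 and 419 at 200 nM and 526, 605 and 572 at 800 nM (-0.94, -0.61 and -0.26). The fall thus deepened with dose in U2-OS and was deepest at 50 nM in SJSA-1, and the change at 800 nM in SJSA-1 did not pass with arrays centred on their median (-0.17, adjusted p = 0.0542) and was -0.04 (adjusted p = 0.631) in the other active probe set, which fell by 0.85 and 0.41 at 50 and 200 nM. CEP55 is among the genes that the study selected with the help of these arrays, so its fall is not independent evidence of its direction.

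The remaining centrosomal genes were few. CEP70, a centrosomal protein that binds tubulin, was active in U2-OS, where it read 187, 186 and 168 in DMSO, 214, 198 and 195 at 200 nM and 326, 317 and 320 at 800 nM (0.83 ± 0.06, adjusted p = 1.19e-07). The rise at 200 nM (0.17, adjusted p = 0.0392; -0.10 after the shift by both kinds of control) was lost without DMSO replicate 3 (0.11) or 200 nM replicate 1 (0.13). The gene's 5 other active probe sets in U2-OS rose by 0.21 to 0.70 at 800 nM and lay between -0.06 and 0.18 at 200 nM, where none passed, and the shift by poly-A controls alone put its value there at -0.08. CEP72, which recruits pericentriolar material, fell by 0.46, 0.48 and 0.52 in SJSA-1. CEP95 fell by 0.43, 0.63 and 0.50 in SJSA-1 and by 0.21 and 0.43 at 200 and 800 nM in U2-OS. Its other active probe set gave -0.70, -1.33 and -1.12 in SJSA-1 and -0.29 at 800 nM in U2-OS, but did not pass at 200 nM there (-0.08). CEP15 rose from 128, 153 and 149 to 179, 177 and 186, 234, 193 and 207, and 229, 223 and 234 in SJSA-1 (0.33, 0.55 and 0.67), of which the value at 50 nM was -0.04 under the shift by both kinds of control.

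At the centromere itself, the histone gene fell and the genes of its reader network were divided. CENPA (chr2:26786056-26794589), the histone H3 variant that marks centromeres, read 676, 750 and 776 in SJSA-1 in DMSO, 478, 455 and 505 at 50 nM, 309, 254 and 244 at 200 nM and 246, 278 and 254 at 800 nM (-0.61, -1.45 and -1.50, each ± 0.08, adjusted p = 2.73e-05, 4.46e-09 and 3.02e-09). In U2-OS it read 1070, 1100 and 1050 in DMSO, 1140, 1110 and 1170 at 200 nM and 809, 838 and 885 at 800 nM, where it passed as lower (-0.35, adjusted p = 3.7e-05). The SJSA-1 arrays at 200 and 800 nM overlapped, and the change between these doses did not pass (-0.05, adjusted p = 0.715). All 4 active probe sets of the gene gave between -1.22 and -1.45 in SJSA-1 at 200 nM. CENPB, which binds the alphoid CENP-B box, fell by 0.31, 0.15 and 0.14 in SJSA-1 and by 0.18 and 0.20 at 200 and 800 nM in U2-OS. Its other active probe set fell further, by 0.59, 0.38 and 0.35 in SJSA-1 and by 0.38 and 0.43 in U2-OS.

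The CCAN genes (11 active for U2-OS, 9 for SJSA-1) had medians near 0 at each dose (-0.02, 0.01 and -0.03 in U2-OS and 0.00, 0.16 and 0.09 in SJSA-1), with 4 higher and 1 lower at 200 nM and 4 and 3 at 800 nM in U2-OS, and 4 and 3, 5 and 2, and 5 and 1 at the rising doses in SJSA-1. Shares over all active genes were 18.2% higher and 25% lower, and 25.3% and 36.5%, at these doses in U2-OS and 26.6% and 40.6%, 33.9% and 41%, and 36.5% and 37.5% in SJSA-1, and each of these higher counts includes CENPN, whose probe sets disagree. CENPQ, of the CENP-O, -P, -Q and -U complex, read 231, 211 and 185 in U2-OS in DMSO, 119, 103 and 125 at 200 nM and 58.9, 58.9 and 71.0 at 800 nM (3.28-fold lower, -1.71 ± 0.10, adjusted p = 2.51e-08). In SJSA-1 it read 224, 251 and 241 in DMSO, 91.8, 82.7 and 88.6 at 50 nM, 168, 126 and 136 at 200 nM and 198, 239 and 228 at 800 nM. The deepest value was thus at the highest dose in U2-OS and at the lowest in SJSA-1 (2.70-fold, -1.43, adjusted p = 2.61e-08), and in SJSA-1 the arrays at 800 nM overlapped DMSO (-0.11, adjusted p = 0.315). CENPU, its partner in the same complex, rose in SJSA-1 by 0.38, 0.38 and 0.44 and at 800 nM in U2-OS by 0.29, with values of 0.00, 0.04 and 0.04 in SJSA-1 and -0.21 in U2-OS after the shift by both kinds of control, and below 0 throughout with the poly-A controls alone. CENPO, of that complex as well, was active in U2-OS, where it read 135, 124 and 144 in DMSO, 185, 187 and 170 at 200 nM and 218, 220 and 214 at 800 nM (0.42 and 0.69, adjusted p = 0.000218 and 1.17e-06), and -0.11 and -0.22 with the poly-A controls alone.

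CENPL, which with CENPN reads the CENPA nucleosome, read 186, 168 and 186 in SJSA-1 in DMSO, 134, 138 and 133 at 50 nM, 79.3, 68.6 and 64.9 at 200 nM and 41.6, 51.3 and 48.5 at 800 nM (-0.41, -1.33 and -1.91, each ± 0.08, adjusted p = 0.000623, 7.34e-09 and 1.81e-10). In U2-OS it read 223, 228 and 201 in DMSO and 246, 246 and 252 at 200 nM, where it passed as higher (0.19, adjusted p = 0.0112), which turned to -0.07 with arrays shifted by both kinds of control. Its 2 active probe sets in SJSA-1 gave -1.33 and -1.51 at 200 nM. CENPN itself depended on the probe set. The brightest rose in SJSA-1, from 843, 815 and 849 to 955, 949 and 989 at 50 nM (0.21, adjusted p = 0.000248), to 936, 936 and 910 at 200 nM and to 891, 879 and 891 at 800 nM, whereas its 2 other active probe sets fell, by 0.85 and 0.75 at 50 nM and by 0.47 and 0.75 at 200 nM. The mean over all probe sets of the gene was -0.48 at 50 nM in SJSA-1, so no direction is given for CENPN. The call of the brightest probe set at 800 nM (0.09, adjusted p = 0.0482) was lost without any one of the 6 arrays (lowest adjusted p = 0.0561), and that at 200 nM in U2-OS (0.15, adjusted p = 0.0146) without 200 nM replicate 3 (0.12).

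**Figure D4:**
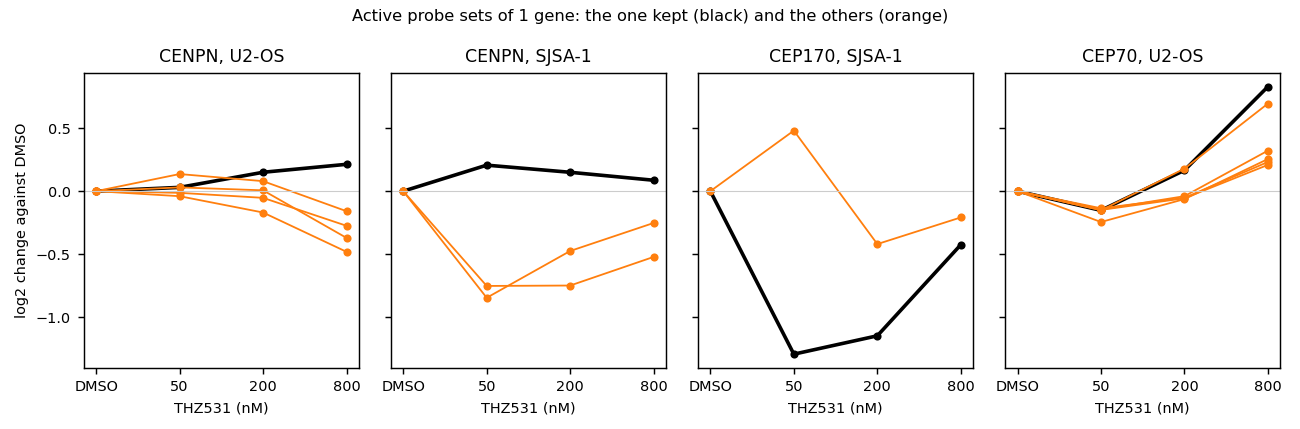
Log2 change against DMSO of the active probe sets of CENPN in U2-OS and SJSA-1, CEP170 in SJSA-1 and CEP70 in U2-OS; the black line is the probe set that stands for the gene and orange lines are the others, each point from 3 arrays per group. For CENPN in SJSA-1 the black line stays at 0.09 to 0.21 while the others lie between -0.25 and -0.85, and for CEP170 the lines part at 50 nM (-1.29 and 0.48).

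Apart from CENPA, the active histone-fold members, and CENPK, CENPH and CENPM beside them, changed less than 2-fold at every dose. CENPW rose in U2-OS from 765, 750 and 803 to 989, 923 and 1000 at 200 nM and to 1140, 1090 and 1070 at 800 nM (0.33 and 0.51, adjusted p = 0.000235 and 2.13e-06; -0.20 and -0.41 with the poly-A controls alone), and in SJSA-1 by 0.29 at 50 nM and 0.16 at 200 nM (-0.09 and -0.18 after the shift by both kinds of control), with 0.01 at 800 nM. CENPS rose in SJSA-1 from 149, 159 and 147 to 168, 180 and 180 at 50 nM, 224, 197 and 195 at 200 nM and 220, 232 and 234 at 800 nM (0.21, 0.43 and 0.59; -0.17, 0.10 and 0.20 after that shift, of which none passed as higher, and -0.03 at 200 nM with the poly-A controls alone), while in U2-OS its arrays stayed between 201 and 249 without a call. CENPX, the partner of CENPS, passed as lower at 50 nM in SJSA-1 (-0.13) and at 800 nM in U2-OS (-0.20). CENPK passed as higher at 800 nM in SJSA-1 (0.41), and its value under the shifts by controls was not followed. CENPH, active in U2-OS, ranged from 184 to 239 on the 12 arrays of that line and passed at no dose. CENPM was the 1 member besides CEP152 and CENPL with opposite calls, both small, at 800 nM, where it was lower in U2-OS (-0.25, adjusted p = 0.00216) and higher in SJSA-1 (0.17, adjusted p = 0.0149). The SJSA-1 call was lost without DMSO replicate 2 (0.15) or 800 nM replicate 1 (0.13), and the value was -0.22 after the shift by both kinds of control. At 200 nM CENPM was higher in SJSA-1 as well (0.22; -0.12 after that shift).

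The outer proteins CENPE and CENPF fell at each dose in SJSA-1, while in U2-OS both were lower at 200 nM and neither passed at 800 nM. CENPF, a large coiled-coil protein of the fibrous corona that is used as a marker of dividing cells, read 428, 458 and 458 in SJSA-1 in DMSO, 383, 396 and 372 at 50 nM, 274, 260 and 251 at 200 nM and 267, 261 and 261 at 800 nM (-0.22, -0.77 and -0.76, each ± 0.05). In U2-OS it passed at 200 nM (-0.29, adjusted p = 0.00297) and not at 800 nM (-0.13, adjusted p = 0.0958). CENPE fell by 0.75, 0.82 and 0.52 in SJSA-1 and by 0.24 at 200 nM in U2-OS, where its value at 800 nM (-0.12) did not pass. CENPV rose in SJSA-1, to 449, 478 and 488, 526, 519 and 505, and 478, 465 and 458 at the rising doses from 385, 407 and 419 in DMSO (0.22, 0.36 and 0.21; -0.16, 0.02 and -0.18 after the shift by both kinds of control). For some members an active probe set other than the representative one did not pass where the gene did: CENPF in SJSA-1 at 50 nM (-0.10) and U2-OS at 200 nM (-0.43), CENPL in the same comparisons (-0.27 and 0.14), CEP43 in SJSA-1 at 50 nM (-0.12), CEP20 in SJSA-1 at 200 nM (-0.04 and -0.12) and CEP95 in U2-OS at 200 nM (-0.08).

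Of the 20 members whose representative probe set lay below the threshold in both lines, some had large differences between groups, given here as levels without a test. CENPC, the CCAN scaffold that binds CENPA nucleosomes, read 97.0, 90.5 and 92.4 in U2-OS in DMSO and 232, 226 and 249 at 800 nM, while in SJSA-1 it read 55.7, 63.1 and 65.3 in DMSO, 26.2, 22.5 and 22.0 at 200 nM and 14.0, 14.1 and 13.0 at 800 nM. At 800 nM CENPC was thus above DMSO in U2-OS and below it in SJSA-1, although at 50 nM it read 92.4, 78.8 and 82.1 in SJSA-1, above DMSO. CEP68, a centrosome linker protein, read 99.0, 88.6 and 97.7 in U2-OS in DMSO and 15.8, 15.9 and 15.8 at 800 nM, and 65.3, 65.3 and 69.1 against 21.6, 19.0 and 18.3 at 50 nM in SJSA-1. For CEP76, which limits centriole copying, the probe sets disagree. The one that stands for the gene read higher at 800 nM in U2-OS (189, 199 and 201 against 89.3, 99.0 and 88.0) and at 50 nM in SJSA-1 (167, 171 and 182 against 95.7, 99.7 and 97.7). Another, brighter in DMSO and active in both lines, was lower at every dose in SJSA-1 (-1.63, -2.05 and -1.60) and at the upper doses for U2-OS (-0.29 and -0.79, largest adjusted p of these 5 values 0.00183 by limma), so no direction is given for CEP76. The other 17 were CENPI, CENPP, CENPT, CEP112, CEP120, CEP126, CEP128, CEP131, CEP162, CEP19, CEP250, CEP295, CEP44, CEP57L1, CEP85L, CEP89 and CEP97. Of the members below the threshold in a line, CEP70 also had another active probe set, which gave 0.00, 0.25 and 0.59 in SJSA-1 and passed at the upper doses, and for the rest no probe set was active there.

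The test of the difference between the lines, the change in SJSA-1 less that in U2-OS, covered the 28 members active in both. At 50 nM 5 were higher and 16 lower (19.8% and 33.4% of 5851 genes, 53.2% in either direction), at 200 nM 5 and 15 (28.4% and 35.5%) and at 800 nM 9 and 12 (35.2% and 31.3%). CEP350 led at 200 nM with -2.89 ± 0.13 (SE, adjusted p = 7.28e-14), followed by CEP85 (-1.57), CENPA (-1.53), CENPL (-1.53), CEP152 (-1.39) and CEP170 (-1.16), which all fell further in SJSA-1. At 800 nM the sign was turned for CENPQ (1.60 ± 0.15), CEP57 (0.90 ± 0.10) and CEP20 (0.88 ± 0.10), which were lower in U2-OS, where at 50 nM they had been lower in SJSA-1 (-1.23, -0.54 and -0.57). The difference of CEP170 at 800 nM (-0.37, adjusted p = 0.0457) was lost without any 1 of 11 of the 12 arrays compared (-0.28 to -0.39). Among the members called at 200 nM in both lines, 11 fell in both, 3 rose in both and 2 had opposite directions, CEP152 and CENPL. Over the 5851 genes 13% fell in both lines, 6.75% rose in both and 13.3% had opposite directions, and the 3 that rose were CEP78, CENPW and CENPN, the last with probe sets that disagree.

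**Figure D5:**
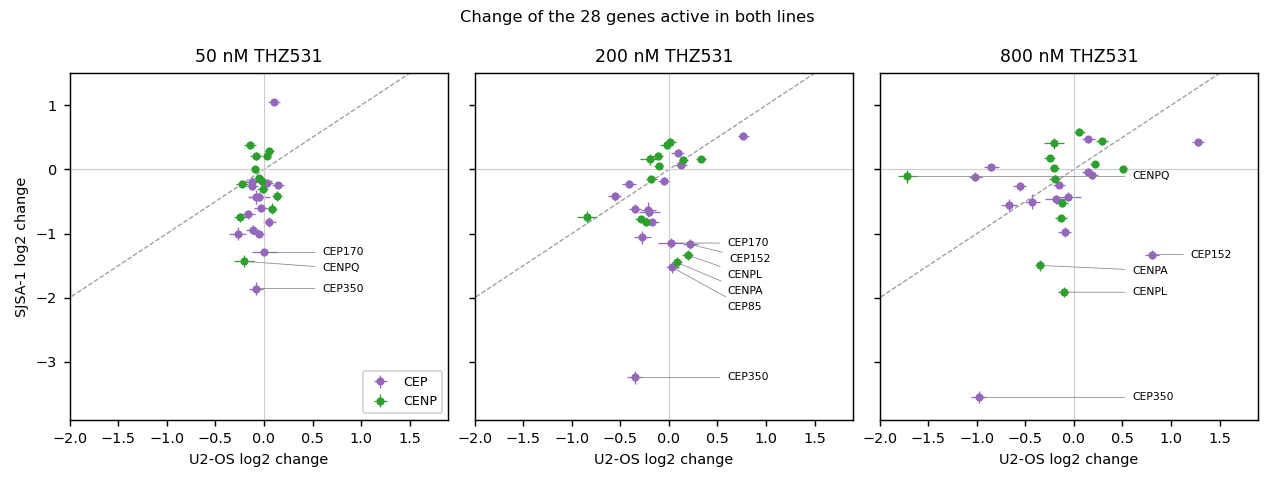
Log2 change in SJSA-1 against that in U2-OS for the 28 genes active in both lines at 50, 200 and 800 nM, CEP in purple and CENP in green; bars are standard errors and the dashed line marks equal change. At 50 nM the points spread along the SJSA-1 axis only, and at 800 nM CENPQ (-1.71 in U2-OS, -0.11 in SJSA-1) and CEP350 (-0.98, -3.55) lie on opposite sides of the dashed line.

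Dose did not act in 1 direction in SJSA-1. From 50 to 200 nM 15 members rose and 9 fell (33.5% and 30.9% of all active genes, 64.4% in either direction), and from 200 to 800 nM 14 rose and 4 fell (20.2% and 13.2%), of which the CEP genes made up 11 and 1. From 50 to 800 nM, a comparison added after seeing the data, 19 rose and 8 fell (41.6% and 30.2% of all active genes, 71.9% in either direction). Of the 24 members lower at 50 nM than in DMSO, 15 rose from 50 to 800 nM (62.5%), 5 fell and 4 passed neither way. The same held for 1496 of the 2665 genes lower at 50 nM (56.1%), so this course was not particular to the members, and both comparisons share the 50 nM arrays. The 5 that went on falling were CEP350, CENPL, CEP152, CENPA and CENPF, with changes from 50 to 800 nM of -1.70, -1.50, -1.13, -0.88 and -0.54. The largest returns were those of CENPQ (1.32), CEP41 (1.04) and CEP170 (0.87). For CEP170 the other active probe set was above DMSO at 50 nM (0.48) and below it at 800 nM (-0.21), so its return depends on the probe set. In U2-OS 5 rose and 6 fell from 50 to 200 nM (9.18% and 15% of all active genes) and 7 rose and 8 fell from 200 to 800 nM (13% and 21.4%, 34.4% in either direction), and of the 11 members lower at 200 nM 9 were lower at 800 nM as well, as were 91.6% of the 1687 genes lower at 200 nM.

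Partner genes of the same structures were counted from lists of kinetochore and centromere partners and of centriole and pericentriolar partners. In SJSA-1 at 200 nM 4 of 32 active kinetochore partners were higher and 22 lower, with a median of -0.45, and 5 of 26 centriole partners were higher and 14 lower, with a median of -0.32, against 33.9% higher, 41% lower and a median of -0.02 over all active genes. In U2-OS at 200 nM the counts were 2 and 14 of 32 (median -0.13) and 2 and 10 of 23 (-0.10), against 18.2% and 25%. At 800 nM the kinetochore partners numbered 6 higher and 22 lower for U2-OS and 5 and 21 for SJSA-1, and the centriole partners 5 and 12, and 8 and 13. At 50 nM the counts were 0 and 2 for the kinetochore and 0 and 0 for the centriole partners in U2-OS, and 3 and 24, and 1 and 14, in SJSA-1. Over all active genes 25.3% were higher and 36.5% lower at 800 nM in U2-OS, and 36.5% and 37.5% in SJSA-1. The shares at 50 nM were 3.4% and 3.23% in U2-OS and 26.6% and 40.6% in SJSA-1. HJURP, the chaperone that loads CENPA onto chromatin, fell by 2.02 ± 0.04 in SJSA-1 at 200 nM, and the microtubule-binding NDC80 by 1.84, MIS12 by 1.59 and the chromosomal passenger CDCA8 by 1.47. On the centriole side the satellite protein KIAA0753 fell by 2.01, the augmin subunit HAUS8 by 1.77, and the cartwheel assembly proteins STIL by 1.66 and SASS6 by 1.50. Of 16 markers of proliferation, all active in SJSA-1, 3 were higher and 9 lower there at 200 nM, with a median of -0.16, and of 15 active in U2-OS 2 were higher and 3 lower, with a median of 0.01. At 50 and 800 nM the markers numbered 6 higher and 6 lower and 4 and 10 for SJSA-1, and 0 and 2 and 6 and 6 for U2-OS. The shares over all active genes to set beside them are those given above for the same line and dose. The part of the markers in the results was not tested.

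Gene length was set beside the response as a description. The members span from 2.9 kb (CENPB) to 556.6 kb (CEP112), and CEP350 spans 160.1 kb. Across the 19 active CEP genes in SJSA-1 at 200 nM, log span and log2 change had a Pearson r of -0.494 and a Spearman rho of -0.495, so longer genes had lower values. Across the 14 active CENP genes r was -0.04 and rho 0.01, across all members -0.335 and -0.354 (n = 33), and across all 6568 active genes -0.16 and -0.17. In U2-OS at 200 nM r was 0.01 and rho -0.06 over 31 members. All points of a correlation share the same arrays, and genes are not independent replicates.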

How the data were processed

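Expression was measured on 24 Affymetrix PrimeView arrays, 3 in each of 8 groups. The authors deposited normalised intensities, made with RMA and quantile normalization according to the study's methods, while the notes of the submitters on processing list both MAS5 and RMA. The deposited values, from 3.43 to 9675 on a linear scale, are powers of 2 of log2 values in whole hundredths. Of 49372 probe sets 44994 had 1 symbol, and each of the 18132 genes is given by its probe set with the highest mean log2 value. The 56 members hold 160 probe sets, and 15 have 1 only. For each line limma (3.58.1, R 4.3.3) was fitted to log2(value + 1) of 12 arrays with 4 groups, with Benjamini-Hochberg adjustment over genes with a DMSO mean above 100 and a threshold of 0.05. The difference between lines was fitted on 24 arrays over 5851 genes active in both. The comparison of DMSO arrays was a contrast in a fit of all 24 arrays over the 18132 genes. Every fold was taken from log2(value + 1), so changes of low genes are understated.

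The fit was tested on simulated data. Genes with full array values are CEP350, CEP55, CENPA, the 6 largest changes per line at 200 and 800 nM, the 4 largest rises at 200 nM, the 6 largest differences between lines, the 5 largest in DMSO, genes with opposite directions, genes active in 1 line, and genes with discordant probe sets, and 4 of each partner list. Members and lists were chosen with earlier results of these data known. Alternatives were other pseudocounts (0 and 16), filters, scalings, probe set rules, fits and left-out arrays. The replicate numbers did not pair the arrays. Probe sets with several symbols or none were left out.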

Additional observations from a re-analysis of the deposited data

Results flagged for a closer look

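These genes were picked out because the change against DMSO differed between the lines by the test of the difference itself (limma interaction, adjusted p under 0.05), all of them at 200 nM and those of at least 1 on the log2 scale at the other doses. Each value is the change in SJSA-1 less that in U2-OS. At 200 nM the difference was below 0 for CEP350 (-2.89), CEP85 (-1.57), CENPA (-1.53), CENPL (-1.53), CEP152 (-1.39), CEP170 (-1.16), CEP192 (-0.79), CEP135 (-0.65), CENPE (-0.58), CENPF (-0.48), CEP164 (-0.46), CEP95 (-0.41), CEP55 (-0.26), CEP78 (-0.24) and CENPW (-0.17). It was above 0 at 200 nM for CENPX (0.16), CENPM (0.33), CENPK (0.35), CENPU (0.40) and CENPS (0.42). At 50 nM the differences of that size were CEP350 (-1.77), CEP170 (-1.30) and CENPQ (-1.23), and the active probe sets of CEP170 in SJSA-1 disagree at that dose. At 800 nM they were CEP350 (-2.57), CEP152 (-2.13), CENPL (-1.81) and CENPA (-1.15), with CENPQ (1.60) on the other side. CEP350 is the gene present at all 3 doses. Groups of 3 arrays were too small to look for single arrays far from the rest.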

How the results depend on the processing

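Counts of members past the threshold against DMSO were 1, 18 and 20 for U2-OS and 31, 29 and 25 for SJSA-1 at 50, 200 and 800 nM. Leaving out 1 array at a time gave 0 to 3, 13 to 17 and 18 to 24 in U2-OS, while SJSA-1 had 29 to 31, 27 to 31 and 23 to 25. Between doses it gave 8 to 10 (main count 11) from 50 to 200 nM and 13 to 16 from 200 to 800 nM in U2-OS, and 22 to 25, 13 to 18 and 25 to 27 in SJSA-1 (200 against 50, 800 against 200 and 800 against 50 nM). It gave 19 to 22, 18 to 20 and 19 to 23 for the difference between lines and 41 to 45 (main count 43) in DMSO.

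With a DMSO mean above 200, which tests fewer genes, the counts against DMSO were 2, 10 and 12 for U2-OS and 17, 16 and 13 for SJSA-1, those between neighbouring doses 5 and 8 in U2-OS and 15 from 50 to 200 nM in SJSA-1, with 17 from 50 to 800 nM, and those of the difference between lines 12, 9 and 12. With no filter on low values they were 35 at 800 nM in U2-OS, 48 and 47 at 50 and 200 nM in SJSA-1 and 38, 35 and 34 for the difference between lines, more genes being tested. With at least 2-fold asked as well they were 0, 0 and 3 for U2-OS, 6, 7 and 4 for SJSA-1, 3, 6 and 5 for the difference between lines and 10 in DMSO. With genes active in both lines the DMSO count was 22, of 28 members tested. The mean over a gene's probe sets gave 2 at 50 nM and 7 from 50 to 200 nM in U2-OS, 19 at 50 nM in SJSA-1 and 13 for the difference between lines at 50 nM. Fewer members were tested with this mean, since dimmer probe sets put many of them below the filter. The shift by poly-A and hybridization controls gave 21 from 50 to 200 nM in U2-OS, 9 from 200 to 800 nM in SJSA-1 and 12 for the difference between lines at 200 nM. The count at 50 nM in U2-OS was 0 under that shift, under the poly-A controls alone, with only the 2 groups compared and by the methods' t-test after Benjamini-Hochberg. It was 2 with all 24 arrays in 1 fit, with trend and robust fitting and by the methods' t-test at an unadjusted p under 0.05, and 3 after another quantile normalization. The methods' t-test after Benjamini-Hochberg gave 10 at 200 nM in U2-OS. Replicate numbers did not pair the arrays (same-number correlations of -0.446 to 0.362 in U2-OS and -0.518 to 0.381 in SJSA-1). With the replicate block the count at 50 nM in U2-OS was 0, calls over all genes there went from 447 to 299, and no other member count moved by over 1.5 times.

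Turns of sign are listed here only for named genes that passed in the main fit, under the other setting or in both. After the shift by poly-A and hybridization controls the sign turned in U2-OS at 200 nM of CEP152 (-0.042), CEP70 (-0.098), CENPL (-0.071) and CENPN (-0.11), and at 800 nM of CENPS (-0.44), CENPU (-0.21), CEP43 (-0.34) and CENPN (-0.28). After the shift by poly-A and hybridization controls the sign turned in SJSA-1 at 50 nM of CENPW (-0.085), CEP15 (-0.044), CENPS (-0.17), CENPV (-0.16), CENPM (-0.38) and CENPN (-0.17), and at 200 nM of CENPW (-0.18), CEP43 (-0.076), CENPM (-0.12), CEP41 (-0.25) and CENPN (-0.19), and at 800 nM of CEP20 (-0.36), CENPW (-0.39), CENPV (-0.18), CENPM (-0.22), CEP41 (-0.045) and CENPN (-0.31). With the poly-A controls alone the sign turned in U2-OS at 200 nM of CENPA (-0.45), CENPO (-0.11), CENPW (-0.20), CEP152 (-0.31), CEP70 (-0.37), CEP85 (-0.50), CENPL (-0.34), CEP170 (-0.52), CENPS (-0.52), CEP43 (-0.44), CENPH (-0.46) and CENPN (-0.38), and at 800 nM of CENPO (-0.22), CENPW (-0.41), CEP152 (-0.11), CEP70 (-0.081), CENPS (-0.85), CENPU (-0.62), CEP43 (-0.76) and CENPN (-0.70). With the poly-A controls alone the sign turned in SJSA-1 at 50 nM of CENPW (-0.20), CEP15 (-0.16), CENPS (-0.29), CENPU (-0.12), CENPV (-0.27), CENPM (-0.49) and CENPN (-0.29), and at 200 nM of CENPW (-0.30), CENPS (-0.026), CENPU (-0.081), CENPV (-0.10), CEP43 (-0.20), CENPM (-0.24), CEP41 (-0.37) and CENPN (-0.31), and at 800 nM of CEP78 (-0.11), CEP20 (-0.50), CENPW (-0.53), CENPU (-0.097), CENPV (-0.32), CEP43 (-0.064), CENPM (-0.36), CEP41 (-0.19) and CENPN (-0.45). With the mean of all probe sets the sign turned in U2-OS at 200 nM of CENPN (-0.0052), and at 800 nM of CENPN (-0.18). With the mean of all probe sets the sign turned in SJSA-1 at 50 nM of CENPN (-0.48), and at 200 nM of CENPN (-0.35), and at 800 nM of CENPN (-0.19). After another quantile normalization the sign turned in SJSA-1 at 800 nM of CENPW (-0.099) and CENPN (-0.024). Other than by the construction named, the cause was not tested.

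Of the remaining values for named genes, 1937 kept their side of the threshold, 41 lost the call and 36 gained it. Those that kept their side include values that passed under neither setting, and for these a turn of sign was not counted. With 3 arrays per group small changes near the threshold were often lost when 1 array was left out, as given beside each gene. Intensities are not counts, so depth is unknown and precision is limited by the number of arrays.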
